A study of Mus musculus with 5 samples.

Results

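Icam1, Vcam1, Sdc1, Sparcl1 and Ggt5 are 5 genes used to recognise committed preadipocytes, the fat progenitors that already lean towards becoming adipocytes. They were chosen by name, were all found in the deposited count table of 54532 mouse genes, and all passed the filter on low counts that left 15920 genes for testing. Read counts came from 5 libraries of sorted adipose-derived stem cells, 2 from subcutaneous fat (SAT) and 3 from visceral fat (VAT). The study sorted cells of 30 wild-type (WT) mice, 12 to 14 weeks old and on a chow diet, and all 5 libraries share this genotype and diet. Stromal vascular cells were depleted of CD31+ endothelial and CD45+ immune cells by gating and sorted on CD26 (encoded by Dpp4) and on CD142 (tissue factor, encoded by F3). By title, SAT gave a CD26+CD142- and a CD26-CD142+ library, while VAT gave 2 that are CD26-CD142+ and 1 that is CD26+CD142+. Each library is bulk RNA of a sorted pool, and the labels do not say whether libraries came from separate pools of mice, so the p-values measure only the spread between these libraries.

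The gate of the SAT libraries is given in opposite ways by the labels. SAT library 1 is titled CD26+CD142- and has a library name that says CD142, whereas SAT library 2 is titled CD26-CD142+ and has a library name that says CD26. Dpp4 was 153-fold higher (95% counting interval 131 to 181) in SAT library 2, and F3 was 116-fold higher (96.9 to 140) in SAT library 1, which goes with the library names and against the titles. No library was reassigned, so every comparison that uses a SAT gate is given by library name and again by title. Titles and names give the same gates for the VAT libraries. Total counts ran from 21706345 to 25357403. Mitochondrially encoded genes took 2.83% and 4.33% of counts in the libraries numbered 1 in their names, SAT library 1 and VAT CD26-CD142+ library 1, and 0.554% to 0.633% in the 3 libraries numbered 2.

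In mouse fat, CD26+ interstitial progenitors are known to give rise to ICAM1+ committed preadipocytes and to CD142+ progenitors, and the CD142+ cells have been reported to restrain the adipogenesis of their neighbours. ICAM1 and VCAM1 are immunoglobulin-superfamily membrane proteins that bind leukocyte integrins, and both can be induced by inflammatory cytokines through NF-kB. Syndecan-1 (Sdc1, CD138) is a transmembrane heparan sulfate proteoglycan that binds growth factors and matrix. GGT5 is a membrane-anchored ectoenzyme of the gamma-glutamyl transferase family that acts on glutathione and leukotriene C4. SPARC-like protein 1 (Sparcl1, hevin) is a secreted matricellular glycoprotein rather than a surface protein, although it is often listed with the surface markers. The libraries measured RNA only.

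The genes lie on different chromosomes of mm10. Icam1 (ENSMUSG00000037405) spans chr9:21015985-21028817 on the plus strand, and Sdc1 (ENSMUSG00000020592) spans chr12:8771323-8793715 on the plus strand. Vcam1 (ENSMUSG00000027962) spans chr3:116109949-116129688 on the minus strand, and Sparcl1 (ENSMUSG00000029309) spans chr5:104079111-104113733 on the minus strand. Ggt5 (ENSMUSG00000006344) spans chr10:75589340-75617200 on the plus strand. Genes annotated on the opposite strand overlap Icam1, Vcam1, Sparcl1 and Ggt5, and these held between 2 and 33 counts over the 5 libraries together, far fewer than the 5 genes themselves.

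Promoter sequence from the RefSeq table (GRCm38.p6) was at hand for 2 of the 5 genes. Icam1 and Sdc1 are shown, as no entry was found there for Vcam1, Sparcl1 and Ggt5. Both windows are on the plus strand, at chr9:21015690-21015969 for Icam1 and chr12:8771146-8771352 for Sdc1, and end 30 bases past the first annotated start. Capitals mark matches on either strand to NF-kB (GGNNNTTCC), a TATA box (TATAAA) or a GC box (GGGCGG, which reads CCGCCC on the other strand).
Icam1: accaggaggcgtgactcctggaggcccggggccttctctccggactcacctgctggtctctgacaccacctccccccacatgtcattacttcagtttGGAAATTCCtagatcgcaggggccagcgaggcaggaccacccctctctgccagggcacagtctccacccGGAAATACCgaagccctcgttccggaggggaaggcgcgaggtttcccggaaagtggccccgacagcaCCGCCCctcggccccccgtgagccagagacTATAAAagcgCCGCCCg
Sdc1: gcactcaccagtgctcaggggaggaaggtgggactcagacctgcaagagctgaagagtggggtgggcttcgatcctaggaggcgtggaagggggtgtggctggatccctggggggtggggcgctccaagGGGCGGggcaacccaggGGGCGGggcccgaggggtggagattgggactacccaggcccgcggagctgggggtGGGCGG
The Icam1 window holds an NF-kB match at base 98 that reads on both strands, another on the other strand at base 167, a TATA box at base 264 and GC boxes at bases 234 and 274. The Sdc1 window holds GC boxes at bases 130, 147 and 202 and no match to the NF-kB or TATA letters. The RefSeq start lies 45 bases before the deposited gene start for Icam1 and 73 bases after it for Sdc1. The Icam1 TATA box and the GC box at base 274 lie past the RefSeq start but before the deposited start. The Sdc1 GC box at base 202 lies before the RefSeq start but past the deposited start. Among 32851 RefSeq promoter windows of 280 bases, 17.4% held the NF-kB letters, 13.1% the TATA box and 34.7% the GC box. In windows of 207 bases the shares were 12.6%, 9.45% and 25.97%. Matches to AP-1 (TGANTCA), C/EBP (TTGCNNAA) and IRF (TTTCNNTTT) letters were searched too and were in neither window. A match describes letters and was not tested as a binding site.

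Icam1, the ligand of LFA-1, was at 75.3 CPM (read counts scaled to library size by edgeR's TMM factors) in SAT library 1 and 28.3 in SAT library 2, then 43.1 and 79.2 in the VAT CD26-CD142+ libraries and 46.2 in the VAT CD26+CD142+ library. It was lowest in SAT library 2, and its highest level was 2.79 times its lowest, the narrowest range of the 5 genes. The VAT pair differed by 1.84-fold (1.70 to 1.99, counting interval), and the VAT CD26+CD142+ library lay between them. At the top of its order, SAT library 1 and VAT CD26-CD142+ library 2 did not differ beyond counting error (ratio 0.951, interval 0.890 to 1.02). Nor did the VAT CD26+CD142+ library and VAT CD26-CD142+ library 1 (1.07, 0.980 to 1.17).

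Vcam1, the ligand of VLA-4, was at 183 CPM in SAT library 1 and 18.3 in SAT library 2, then 263 and 165 in the VAT CD26-CD142+ libraries and 74.0 in the VAT CD26+CD142+ library. The 3 libraries named CD142 were all above the other pair, and the range was 14.4-fold. The SAT library named CD142 lay within the VAT pair, which itself differed by 1.59-fold (1.52 to 1.66).

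Sdc1, the heparan sulfate proteoglycan, was at 54.2 CPM in SAT library 1 and 8.70 in SAT library 2, then 45.7 and 37.5 in the VAT CD26-CD142+ libraries and 6.63 in the VAT CD26+CD142+ library. It fell into a high set of 3 libraries named CD142 and a low set of 2 libraries named CD26 or CD26CD142, with no library between 8.70 and 37.5 CPM. Within the high set the mean was 45.8 ± 8.34 CPM (SD, n = 3), and in the low set 7.66 ± 1.46 (SD, n = 2). It was the gene among the 5 whose lowest library was the VAT CD26+CD142+ library, by 1.31-fold (1.06 to 1.63) below SAT library 2.

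Sparcl1, the secreted matricellular gene, was at 922 CPM in SAT library 1 and 39.8 in SAT library 2, then 1557 and 1202 in the VAT CD26-CD142+ libraries and 501 in the VAT CD26+CD142+ library. Its 39.1-fold range was the widest of the 5, and it was set by SAT library 2, which stood 12.6-fold (11.8 to 13.5) below the next library. Ggt5, the ectoenzyme, was at 258 CPM in SAT library 1 and 31.2 in SAT library 2, then 430 and 336 in the VAT CD26-CD142+ libraries and 170 in the VAT CD26+CD142+ library. It had the same order of libraries as Sparcl1 and a 13.8-fold range.

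Levels of different genes were compared per length, as TPM computed from the deposited gene lengths. Sparcl1 was the most abundant of the 5 in each library, from 45.5 TPM in SAT library 2 to 1470 TPM in VAT CD26-CD142+ library 1. It made up 45.7% of the summed TPM of the 5 genes in SAT library 2 and 76.6% to 81.0% in the other 4. Ggt5 followed at 105 to 201 TPM in those 4 libraries, but stood at 17.7 TPM in SAT library 2, where Icam1 was second at 21.8 TPM. Vcam1 and Sdc1 reached their lowest TPM, 6.93 in SAT library 2 and 6.36 in the VAT CD26+CD142+ library. The 5 genes together summed to 1064 TPM in SAT library 1 and 99.7 in SAT library 2, then 1815 and 1671 in the VAT CD26-CD142+ libraries and 804 in the VAT CD26+CD142+ library. In bulk RNA, fewer cells that express these genes and less RNA per cell cannot be told apart.

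**Figure D1:**
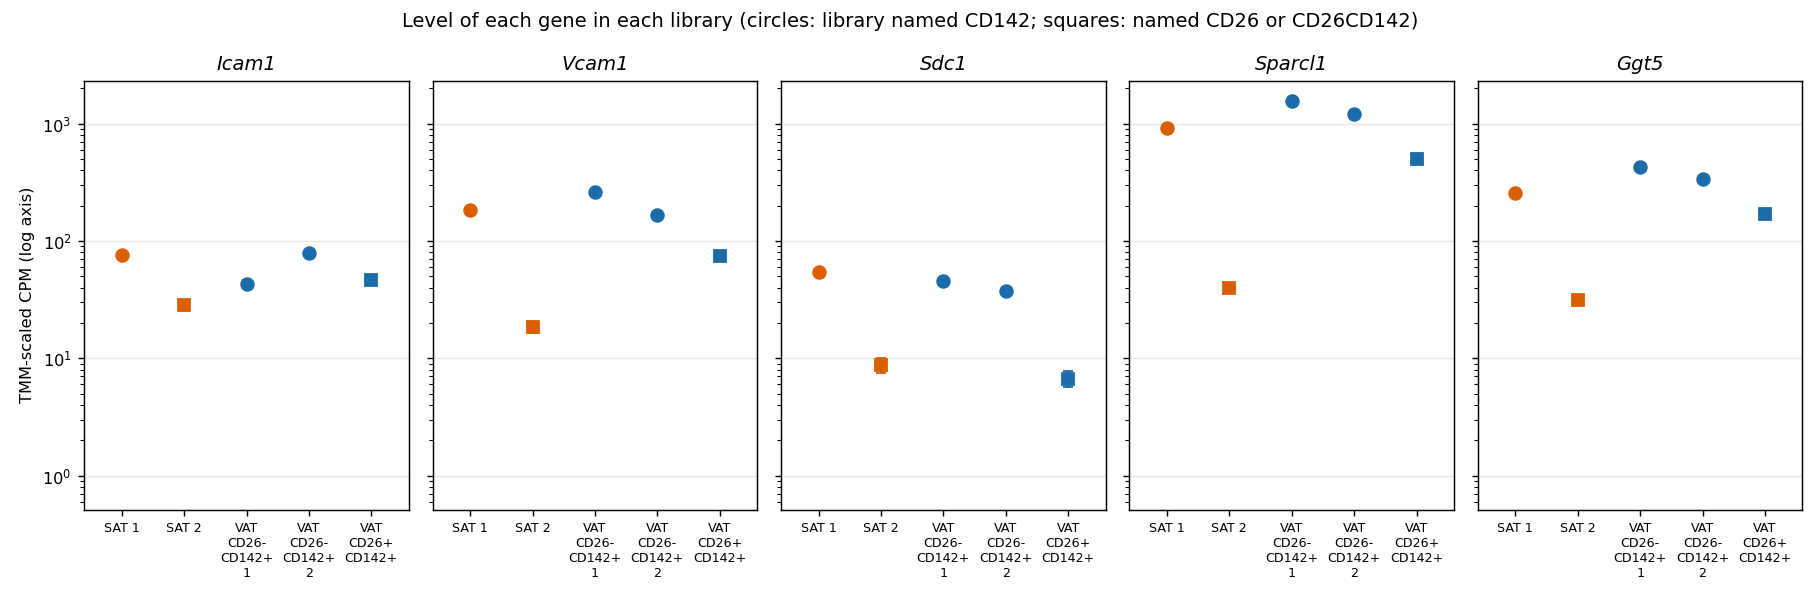
TMM-scaled CPM (log axis) of each gene in each library, with exact 95% Poisson intervals that are mostly smaller than the points. Orange is SAT and blue VAT, circles are libraries named CD142 and squares libraries named CD26 or CD26CD142. Circles lie above squares for Vcam1, Sdc1, Sparcl1 and Ggt5, whereas for Icam1 the square at 46.2 CPM lies above the circle at 43.1 CPM.

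Within VAT, where the labels do not conflict, the CD26+CD142+ library was set against the CD26-CD142+ pair. All 5 genes were lower by the fitted change, and 1 of 5, Sdc1, passed the test, beside 254 of 15920 genes (1.6%). Sdc1 fell by 2.65 on the log2 scale (SE 0.55, adjusted p = 0.0209, edgeR's quasi-likelihood test with Benjamini-Hochberg adjustment over all genes tested). It was 6.89-fold (5.83 to 8.19, counting interval) below the first library of the pair and 5.66-fold (4.78 to 6.74) below the second. The other 4 did not pass. Vcam1 was 3.55-fold and 2.23-fold below the pair (log2 change -1.53, SE 0.54, adjusted p = 0.276). Sparcl1 was 3.11-fold and 2.40-fold below them (-1.46, SE 0.58, adjusted p = 0.393), and Ggt5 was 2.53-fold and 1.98-fold below them (-1.17, SE 0.52, adjusted p = 0.535). Icam1 was 1.72-fold below the second and 1.07-fold above the first (-0.41, SE 0.52, adjusted p = 1.00). At an unadjusted p under 0.05 the count was 4 of 5, beside 1334 of 15920 genes. The median log2 change of the 5 was -1.46, against -0.033 over all genes tested. This fit has 1 residual degree of freedom, from the VAT pair, and assumes that the lone libraries vary like that pair.

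With the CD26 gate taken from the library names, the SAT libraries joined this contrast and depot was a term. The SAT libraries differ in CD142 as well as CD26, while both VAT gates are CD142+, so this contrast mixes unlike gates. Vcam1, Sdc1, Sparcl1 and Ggt5 were lower in each library named CD26 or CD26CD142 than in each library named CD142, as were 2749 of 15920 genes (17.3%). Icam1 overlapped between the groups, at 28.3 and 46.2 CPM against 43.1 to 79.2 CPM. Again 1 of 5 passed, with 95 genes (0.597%) passing over the table. Sdc1 fell by 2.65 on the log2 scale (SE 0.25, adjusted p = 0.0381). Vcam1 changed by -2.25 (SE 0.51, adjusted p = 0.144), Sparcl1 by -2.61 (SE 0.80, adjusted p = 0.230) and Ggt5 by -1.92 (SE 0.50, adjusted p = 0.182), and none of these passed. Icam1 changed by -0.82 (SE 0.39, adjusted p = 0.365) and did not pass. With DESeq2 4 of 5 passed, all but Icam1, and with no filter on low counts 3 of 5, Vcam1, Sdc1 and Ggt5. The counts over all genes under these settings are not given here. With library number as a replicate block 0 of 5 passed (Sdc1 adjusted p = 0.255). Without the VAT CD26+CD142+ library, the gate is left to 1 SAT library a side, with spread from the VAT CD26-CD142+ pair alone.

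By title the SAT libraries change sides, and 0 of 5 genes passed, as did 0 of 15920 genes (0%) with edgeR. None of the 5 passed at an unadjusted p under 0.05, with DESeq2 or with limma-voom either. Over all genes, 140 had an unadjusted p under 0.05, and DESeq2 called 16. Without the VAT CD26+CD142+ library, the fit by title is the same SAT contrast as by library name with its sign reversed. Without either SAT library, the gate is left to VAT. The fitted log2 changes by title ran from -0.17 (SE 1.83) for Sdc1 to 1.35 (SE 2.26) for Sparcl1.

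The SAT libraries are 1 of each gate, so they were set against each other here without a test. The SAT library named CD26 was lower than the SAT library named CD142 for all 5 genes, and the direction is the opposite by title. Sparcl1 was 23.2-fold lower (21.7 to 24.8, counting interval), Vcam1 9.99-fold (9.02 to 11.1), Ggt5 8.26-fold (7.63 to 8.95), Sdc1 6.24-fold (5.36 to 7.29) and Icam1 2.66-fold (2.42 to 2.92). All 5 passed a 2-fold difference in that direction, as did 1091 of 9689 genes (11.3%) at 10 CPM or more in 1 of the SAT libraries. Beside these stand the VAT distances of the CD26+CD142+ library from each library of the pair, 6.89-fold and 5.66-fold for Sdc1 and 3.11-fold and 2.40-fold for Sparcl1.

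Whether the gate effect differed between depots was tested directly, but the gates of the depots are not alike. By title both VAT gates are CD142+, whereas the SAT libraries differ in CD142 as well as CD26. F3 differed 116-fold between the SAT libraries, against 3.82-fold and 2.44-fold between the VAT gates. A difference by depot and a difference by CD142 status cannot be told apart here. By library name 0 of 5 genes passed with edgeR, against 40 genes over the table (0.251%). Sparcl1 had the largest difference among the 5, SAT minus VAT, at -3.07 on the log2 scale (SE 0.83, adjusted p = 0.211), and Sdc1 the smallest at 0.0083 (SE 0.72, adjusted p = 1.00). At an unadjusted p under 0.05 the count was 3 of 5, beside 712 of 15920 genes. Of the 5, limma-voom called 0 and DESeq2 called 1, Sparcl1. The counts over all genes with these tools are not given here. By title, 4 of 5 passed (1053 genes over the table, 6.61%), with differences of 4.85 for Vcam1, 5.29 for Sdc1, 5.995 for Sparcl1 and 4.22 for Ggt5. Icam1 at 1.82 (SE 0.80, adjusted p = 0.241) did not pass.

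Library number moves with these contrasts, since both libraries named CD26 or CD26CD142 are numbered 2 and the libraries numbered 1, with the higher mitochondrial share, are both named CD142. Among the 3 libraries numbered 2 alone, the VAT library named CD142 was the highest for all 5 genes. Sdc1 was at 37.5 CPM there, against 8.70 and 6.63 in the libraries named CD26 and CD26CD142. Sparcl1 was at 1202 against 39.8 and 501, Ggt5 at 336 against 31.2 and 170, Vcam1 at 165 against 18.3 and 74.0, and Icam1 at 79.2 against 28.3 and 46.2. The libraries numbered 1 hold no library named CD26, so they give no such contrast. Only 1 library numbered 2 is named CD142, and SAT library 2 differs from it in depot as well as gate. The part of library number in these levels was not tested.

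**Figure D2:**
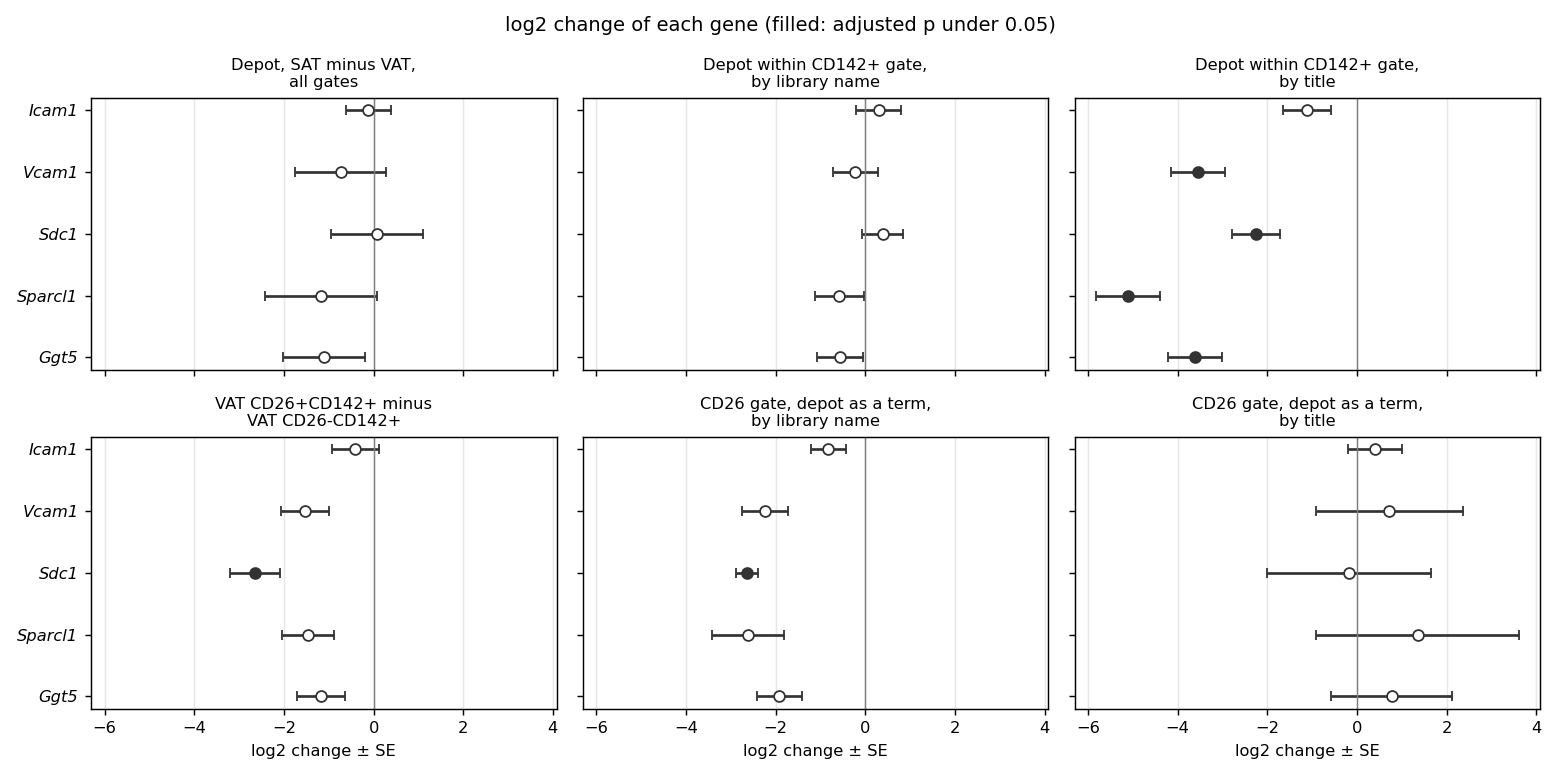
Fitted log2 change (horizontal axis, ± SE) of each gene in 6 contrasts, with filled points at an adjusted p under 0.05 from edgeR. Sdc1 is filled in the VAT gate contrast at -2.65 and in the CD26 gate contrast by library name at -2.65. Within the CD142+ gate by title, Vcam1, Sdc1, Sparcl1 and Ggt5 are filled, and by library name no point is.

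Depot was compared over all gates and then within the CD142+ gate. Over all gates, 0 of 5 genes passed with edgeR, beside 8 of 15920 genes (0.0503%), and none passed at an unadjusted p under 0.05, with DESeq2 or with limma-voom. Sparcl1 averaged 481 ± 624 CPM (SD, n = 2) in SAT and 1086 ± 537 (SD, n = 3) in VAT, with a log2 change of -1.17 (SE 1.25, adjusted p = 1.00). Ggt5 averaged 145 ± 160 CPM in SAT and 312 ± 132 in VAT (-1.11, SE 0.92, adjusted p = 1.00). For both genes the SAT spread was wider than the mean, and the depots overlapped. The choice of SAT library decided the size: the Sparcl1 change was -4.78 without SAT library 1 and -0.24 without SAT library 2, and the Ggt5 change -3.33 and -0.28, and neither passed in any of these fits. Vcam1 (-0.73, SE 1.01), Icam1 (-0.12, SE 0.51) and Sdc1 (0.07, SE 1.02) overlapped as well, with adjusted p of 1.00.

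Within the CD142+ gate by library name, SAT library 1 was set against the VAT pair, and 0 of 5 genes passed, where 375 genes (2.36%) passed over the table. None passed at an unadjusted p under 0.05, with DESeq2 or with limma-voom. The log2 changes, SAT minus VAT, were 0.30 (SE 0.50) for Icam1, -0.23 (SE 0.50) for Vcam1, 0.38 (SE 0.47) for Sdc1, -0.58 (SE 0.55) for Sparcl1 and -0.57 (SE 0.51) for Ggt5, with adjusted p from 0.949 to 0.990. Sparcl1 and Ggt5 were lower in the SAT library than in either VAT library, by 1.69-fold and 1.30-fold for Sparcl1 and by 1.67-fold and 1.30-fold for Ggt5, and Sdc1 was higher than in either, by 1.19-fold and 1.44-fold.

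By title, SAT library 2 takes that place, and 4 of 5 genes fell in SAT against VAT, beside 1032 genes over the table (6.48%). Sparcl1 fell by 5.11 on the log2 scale (SE 0.71, adjusted p = 0.000256), Ggt5 by 3.62 (SE 0.61, adjusted p = 0.00117), Vcam1 by 3.55 (SE 0.61, adjusted p = 0.00135) and Sdc1 by 2.26 (SE 0.54, adjusted p = 0.0159). Icam1 changed by -1.11 (SE 0.54, adjusted p = 0.371). This contrast rests on the SAT library in which F3 was lowest of all 5 libraries, at 5.32 CPM.

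The 5 profiles were not alike in detail. Over the 5 libraries, the root mean square difference between centred log2(CPM + 1) profiles was smallest for Vcam1 and Ggt5, at 0.24, and largest for Icam1 and Sparcl1, at 1.54. Sdc1 lay nearer to Pparg, the nuclear receptor that drives adipocyte differentiation, at 0.30, than to any of the other 4, of which Vcam1 was nearest at 0.77. Sparcl1 lay 0.74 from F3, and Icam1 1.93. These distances describe 5 libraries that share depots and gates.

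By a rule fixed on the same distance, the 3 nearest of 8821 protein-coding genes at a mean of 10 CPM or more were sought for each of the 5. For Icam1 they were the myosin gene Myo5a (0.10), the methyl-CpG binding gene Mbd1 (0.13) and Mical3 (0.15). Those of Vcam1 included Fam71a (0.21) and the insulin-like growth factor binding protein gene Igfbp7 (0.23). For Sdc1 they were Cmbl (0.15), Echdc2 (0.24) and the chromatin remodeller Smarca1 (0.28). Sparcl1 lay nearest to the vasopressin receptor gene Avpr1a (0.18), the microfibril gene Mfap4 (0.25) and Pear1 (0.36). Ggt5 lay nearest to the tetraspanin gene Cd82 (0.15), the natriuretic peptide receptor gene Npr3 (0.17) and Fam71a (0.20), the gene that Vcam1 also had. Igfbp7, as one example, was at 3042 CPM in SAT library 1 and 265 in SAT library 2, then 2695 and 2209 in the VAT CD26-CD142+ libraries and 1086 in the VAT CD26+CD142+ library.

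**Figure D3:**
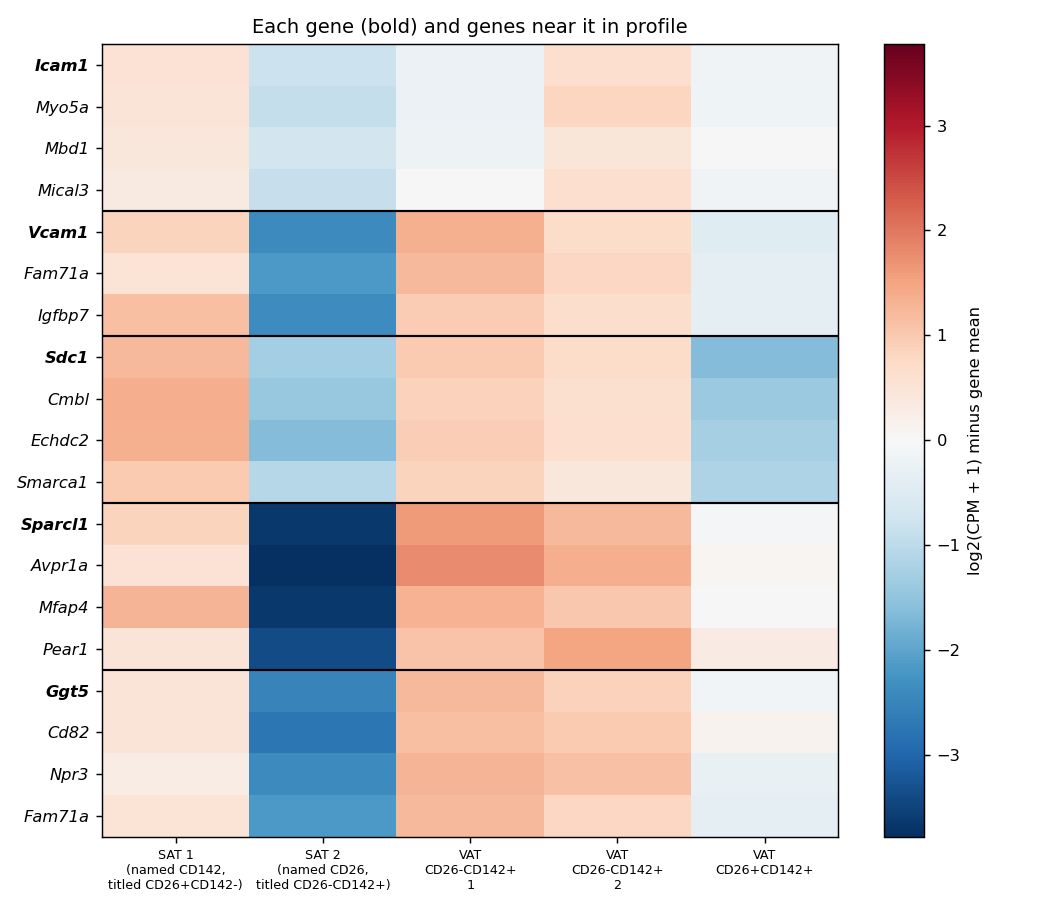
Centred log2(CPM + 1) of each of the 5 genes (bold) and genes near it in profile over the 5 libraries, where red is above and blue below the gene's mean. SAT library 2 is the lowest column for Icam1, Vcam1, Sparcl1 and Ggt5, and the VAT CD26+CD142+ library is the lowest for Sdc1.

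Other genes of committed preadipocytes were read from a list of 14, all of which were tested. In the VAT gate contrast 13 of 14 were lower in the CD26+CD142+ library, 3 of 14 fell and none rose, with a median log2 change of -1.78. Pparg was at 30.7 and 26.9 CPM in the VAT CD26-CD142+ libraries and 2.18 in the VAT CD26+CD142+ library, and fell by 3.72 on the log2 scale (SE 0.59, adjusted p = 0.00352). Car3, a carbonic anhydrase abundant in fat, went from 102 and 136 CPM to 3.13 CPM and fell by 5.25 (SE 0.64, adjusted p = 0.000511). Apoe, the apolipoprotein E gene, went from 2691 and 1658 CPM to 104 CPM and fell by 4.38 (SE 0.72, adjusted p = 0.00426). Fabp4, a fatty acid binding protein gene, was at 373 and 306 CPM against 81.0 CPM and did not pass (adjusted p = 0.0859). Zfp423, a preadipocyte commitment factor, was the gene on the other side, at 9.89 and 12.2 CPM against 14.0 CPM (log2 change 0.34, adjusted p = 1.00).

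SAT gave the same order for these genes by library name. Pparg was at 34.6 CPM in SAT library 1 and 6.17 in SAT library 2, Car3 at 129 and 1.35 CPM and Apoe at 1787 and 35.9 CPM. With depot as a term and gates by library name, Car3 (log2 change -5.77, SE 0.46, adjusted p = 0.0368) and Apoe (-4.90, SE 0.53, adjusted p = 0.0417) fell, and Pparg (-3.15, SE 0.39, adjusted p = 0.0517) did not pass. Thus 2 of 14 fell there, with a median of -2.36 against -0.012 over all genes tested. Between depots within the CD142+ gate by library name, 0 of 14 passed with edgeR, 1 had an unadjusted p under 0.05, and the median was 0.13.

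Of 16 leukocyte adhesion molecules related to Icam1 and Vcam1, 14 were tested. In the VAT gate contrast 1 rose and none fell, and 6 had an unadjusted p under 0.05. Alcam, which encodes the adhesion molecule CD166, was at 0.46 and 0.86 CPM in the VAT CD26-CD142+ libraries and 4.45 in the VAT CD26+CD142+ library, and rose by 2.74 (SE 0.65, adjusted p = 0.0450). It was at 18.2 CPM in SAT library 1, and rose in SAT against VAT within the CD142+ gate by library name (4.77, SE 0.66, adjusted p = 0.000644). For Alcam, SAT library 1 was above SAT library 2, so by library name the SAT order was the opposite of the VAT order. The paralogs Icam2 and Icam5 stayed at or below 1.56 CPM in all 5 libraries, and Icam4 was at 0 counts in each, where 3 counts would be 0.124 to 0.137 CPM. Jam2, a junctional adhesion molecule, was at 172 and 184 CPM in the VAT CD26-CD142+ libraries and 76.8 CPM in the VAT CD26+CD142+ library, and did not pass (adjusted p = 0.430).

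The integrin counter-receptors that ICAM1 and VCAM1 bind were mostly near the detection limit, apart from Itga9 and Itgb1, and 6 of 9 were tested. Itgal and Itgb2, the subunits of LFA-1, ran from 0.68 to 1.92 CPM and from 0.37 to 1.28 CPM. Itga4, the alpha subunit of VLA-4, ran from 0.26 to 1.46 CPM. Itgb1, the beta subunit of VLA-4 that many matrix receptors share, was at 363 to 579 CPM. Itga9, another alpha subunit of the list, was at 52.6 to 172 CPM. Itgb7 was at 131 CPM in SAT library 2 and at 1.48 CPM or less in the other 4 libraries. None of the 6 passed in the VAT gate contrast with edgeR, where 2 had an unadjusted p under 0.05. The smallest adjusted p, that of Itga9, was 0.381.

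Among the other syndecans, glypicans and heparan sulfate genes, 11 of 13 were tested and none passed in the VAT gate contrast with edgeR, where 4 had an unadjusted p under 0.05. Sdc2 was at 279 CPM in SAT library 1 and 238 in SAT library 2, then 311 and 251 in the VAT CD26-CD142+ libraries and 402 in the VAT CD26+CD142+ library. Sdc4 was at 102, 275, 88.6, 164 and 99.9 CPM in the same order. Neither had the high and low sets of Sdc1: Sdc2 was highest, not lowest, in the VAT CD26+CD142+ library, and Sdc4 was highest in SAT library 2. The largest change of the list was that of Gpc6, a glypican, at 1.98 (SE 0.54, adjusted p = 0.116).

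Of the SPARC family genes besides Sparcl1, 6 of 7 were tested and 1 fell in the VAT gate contrast. Smoc1, a secreted modular calcium-binding protein gene, was at 8.79 and 11.5 CPM in the VAT CD26-CD142+ libraries and 1.03 in the VAT CD26+CD142+ library, and fell by 3.29 (SE 0.77, adjusted p = 0.0401). Its order over SAT libraries was 5.31 CPM in SAT library 1 and 0.72 in SAT library 2. Sparc itself, the founding member, was at 25082 CPM in SAT library 1 and 9180 in SAT library 2, then 9904 and 5443 in the VAT CD26-CD142+ libraries and 5641 in the VAT CD26+CD142+ library. In the VAT gate contrast Sparc changed by -0.44 (SE 0.63) and did not pass, nor did Sparcl1. The VAT CD26+CD142+ library lay between the VAT pair for Sparc and below both for Sparcl1. In SAT both genes were higher in SAT library 1. The difference between the genes was not tested.

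Of the gamma-glutamyl, glutathione and leukotriene genes besides Ggt5, 10 of 14 were tested. None passed in the VAT gate contrast with edgeR, where 2 had an unadjusted p under 0.05. Ggt1, the classical gamma-glutamyl transferase gene, was at 1.38 CPM in SAT library 1, 0 counts in SAT library 2 (up to 0.135 CPM at 3 counts), 0.32 and 0.43 CPM in the VAT CD26-CD142+ libraries and 0.12 in the VAT CD26+CD142+ library. Dpep1, a dipeptidase that converts leukotriene D4 onwards, was at 1369 to 1918 CPM in all 5 libraries and did not pass (log2 change -0.28, SE 0.56). Ltc4s, which makes leukotriene C4, was at 4.23 CPM in SAT library 1 against 0.14 and 0.04 CPM in the VAT CD26-CD142+ libraries, and rose in SAT within the CD142+ gate by library name (5.48, SE 1.199, adjusted p = 0.0206). Anpep, an aminopeptidase, rose there too (1.85, SE 0.46, adjusted p = 0.0477).

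The 15 NF-kB pathway and cytokine response genes were all tested. In the VAT gate contrast none passed with edgeR, 1 had an unadjusted p under 0.05, and the median was 0.053. Nfkbia, the inhibitor that NF-kB induces, was at 438 CPM in SAT library 1 and 673 in SAT library 2, then 335 and 507 in the VAT CD26-CD142+ libraries and 540 in the VAT CD26+CD142+ library. Nfkbia did not pass in the VAT gate contrast (log2 change 0.36, SE 0.52). The part of NF-kB in the levels of Icam1 and Vcam1 was not tested. Over all gates, no gene of these 7 lists, from preadipocyte markers to NF-kB genes, passed between depots with edgeR, and between 0 and 4 genes of a list had an unadjusted p under 0.05.

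As landmarks of the gates, 8 of 10 CD26+ interstitial markers rose in the VAT CD26+CD142+ library, beside 143 of 15920 genes. The median log2 change of these markers was 2.76. They include Dpp4, which encodes the sorted CD26, so its higher level follows from the gate. Of 10 markers of CD142+ progenitors, 1, the homeobox gene Meox1, fell (log2 change -3.01, SE 0.69, adjusted p = 0.0388), beside 111 of 15920 genes. All 10 had a lower fitted level. They include F3, which encodes CD142, on which the cells were also sorted.

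**Figure D4:**
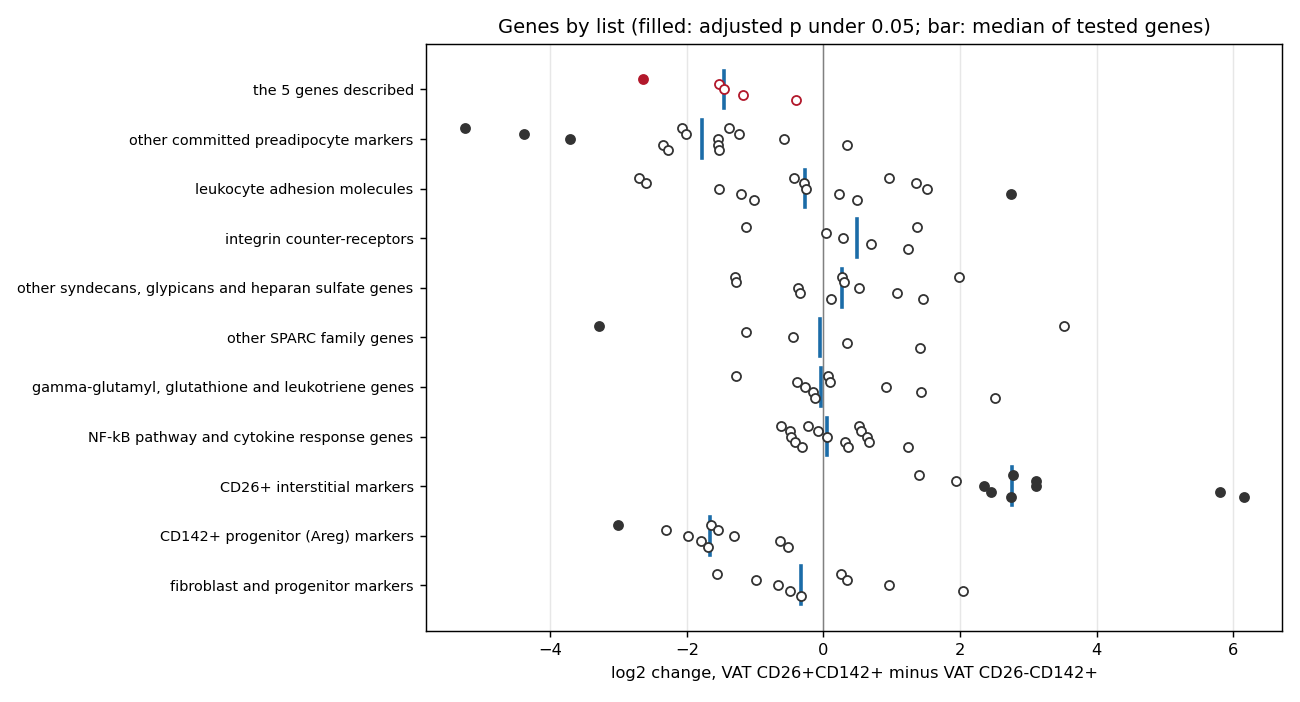
log2 change in the VAT CD26+CD142+ library against the VAT CD26-CD142+ pair for the 5 genes (red) and the genes of 10 lists, with filled points at an adjusted p under 0.05 and a blue bar at each median. The bars of the 5 genes (-1.46) and of the other preadipocyte markers (-1.78) lie to the left, that of the interstitial markers (2.76) to the right, and that of the NF-kB genes (0.053) near 0.

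Markers of other cell types moved with some of these groups. Endothelial cells also express Icam1 and Vcam1, and the summed level of 10 endothelial markers was 40.4 CPM in SAT library 1 and 325 in SAT library 2, then 79.9 and 79.6 in the VAT CD26-CD142+ libraries and 309 in the VAT CD26+CD142+ library. Tek alone was at 19.8 CPM in SAT library 1 and 290.1 in SAT library 2, at 58.8 and 66.6 in the VAT CD26-CD142+ libraries and at 286 in the VAT CD26+CD142+ library. Without Tek the sums were 12.97 to 35.1 CPM, with Pecam1, which encodes the gated CD31, at 2.32 to 7.25 CPM. The full sum was highest in SAT library 2, where Icam1 and Vcam1 were lowest, and its part in those levels was not tested. Plasma cells express Sdc1, and 10 plasma cell and lymphocyte markers summed to 37.8 CPM in SAT library 1 and 5.50 in SAT library 2, then 15.0 and 7.86 in the VAT CD26-CD142+ libraries and 13.9 in the VAT CD26+CD142+ library. Most of each sum was the immunoglobulin heavy chain gene Ighm, at 34.1 CPM in SAT library 1, where Sdc1 was highest, and at 4.15 to 13.4 CPM in the other 4. The light chain gene Igkc was at 0.69 to 2.64 CPM and Jchain, which encodes the chain that joins immunoglobulin units, at 0 to 1.07 CPM. The plasma cell receptor gene Tnfrsf17 and the B cell receptor gene Cd79b were at 0 counts in all 5 libraries, and the plasma cell gene Mzb1 was at 0.18 CPM or less and at 0 in both SAT libraries. The part of such cells in the Sdc1 levels was not tested. The 10 macrophage and leukocyte markers summed to 57.6 CPM in SAT library 1 and 25.2 in SAT library 2, then 46.3 and 29.8 in the VAT CD26-CD142+ libraries and 30.5 in the VAT CD26+CD142+ library, and Ptprc, which encodes the gated CD45, stayed at or below 0.99 CPM.

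Epithelial cells express Sdc1 as well, and 10 epithelial markers summed to 148 CPM in SAT library 1 and 0.45 in SAT library 2, then 1.47 and 1.46 in the VAT CD26-CD142+ libraries and 13.6 in the VAT CD26+CD142+ library. Sdc1 was at 45.7 and 37.5 CPM in the VAT pair, where the epithelial sum was at its 1.47 and 1.46 CPM. In SAT library 1, the part of epithelial RNA in the Sdc1 level was not tested. Of the mesothelial markers, which summed to 361 CPM in the VAT CD26+CD142+ library, Wt1 was at 112 to 154 CPM in all 3 VAT libraries, and the other 9 summed to 249 CPM in the VAT CD26+CD142+ library and to 1.47 and 16.7 CPM in the pair. Their part in the VAT gate contrast was not tested. Mural markers summed to 153 CPM in SAT library 1 and 57.5 in SAT library 2, then 216 and 227 in the VAT CD26-CD142+ libraries and 120 in the VAT CD26+CD142+ library. Summed, they had the same split of libraries by name as Vcam1, Sdc1, Sparcl1 and Ggt5. Abcc9 led the sum in SAT library 1 (98.0 CPM) and Des in the other libraries. Without the top gene of each library the sums were 55.4, 43.2, 78.1, 108 and 23.7 CPM in the same order, with the same split. Single genes differed: Des was at 3.20 CPM in SAT library 1 and 14.4 in SAT library 2. Rgs5 was highest in SAT library 2, at 4.06 CPM. The part of mural RNA was not tested. The 10 adipocyte markers summed to 129 CPM in SAT library 1 and 49.2 in SAT library 2, then 84.3 and 93.7 in the VAT CD26-CD142+ libraries and 44.8 in the VAT CD26+CD142+ library. The 3 libraries named CD142 were thus above the other 2, as for Vcam1, Sdc1, Sparcl1 and Ggt5, and the lowest sum was in the library where Sdc1 was lowest. Adipoq, the adipokine adiponectin, and Cidec, a lipid droplet gene, were at 0 in SAT library 2, and Lep and Cidea were at 0 in the VAT CD26+CD142+ library. Lep was also at 0 in VAT CD26-CD142+ library 2, and Lep and Cidea had at most 4 and 10 counts in any library. In the VAT gate contrast all 8 tested adipocyte markers had a lower fitted level, with a median log2 change of -2.15 against -0.033 over all genes tested. Of these, 6 had an unadjusted p under 0.05 and 1 fell, the lipid droplet gene Plin1 (log2 change -7.61, SE 1.2, edgeR adjusted p = 0.0033). The part of adipocyte RNA in the levels of the 5 genes was not tested.

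**Figure D5:**
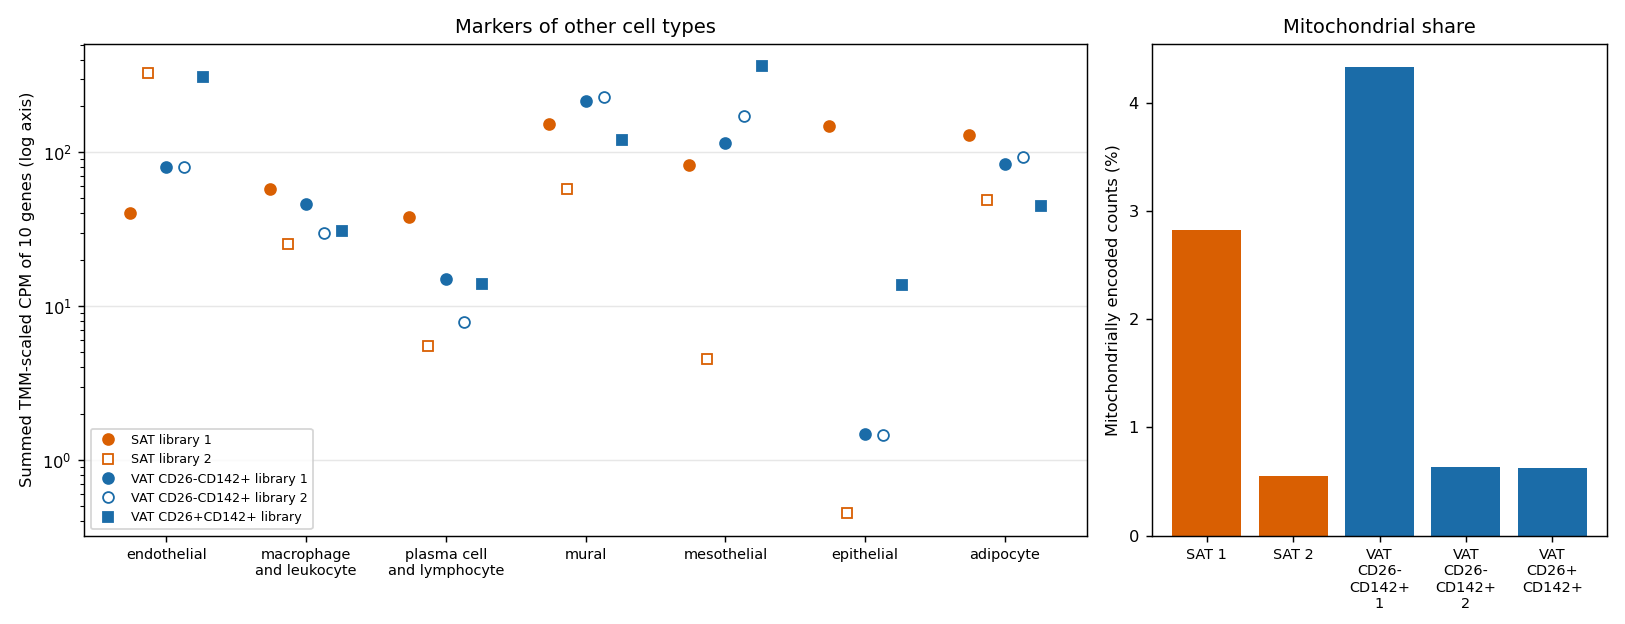
Left, summed TMM-scaled CPM (log axis) of 10 marker genes for each of 7 other cell types in the 5 libraries. Right, the share of counts from mitochondrially encoded genes, with bars from 0. The endothelial sum is highest in SAT library 2 (325 CPM) and the VAT CD26+CD142+ library (309 CPM), the epithelial sum in SAT library 1 (148 CPM), and the mitochondrial share in SAT library 1 (2.83%) and VAT CD26-CD142+ library 1 (4.33%).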

How the data were processed

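The authors deposited a table that holds, for each Ensembl gene, its raw read count in each of 5 libraries and its length in bases, with no normalization. Per the submitters' processing notes, the build was mm10 and the tools included HISAT2 2.0.5, CASAVA and featureCounts 1.5.0-p3; the annotation release and the strand setting are not given in the sources used here. Per the labels' protocols, RNA was extracted with TRIzol and poly(A)-selected. Gene starts and ends were checked against GENCODE mouse release M21.

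From these counts, TMM-scaled CPM and, with the deposited lengths, TPM were computed. The 95% intervals of single counts are exact Poisson ones, and those of library ratios are exact and conditional on the summed count; they cover counting error only, and a floor is 3 counts. Genes were kept by filterByExpr (minimum count 10, depot as group), which left 15920 of 54532. Tests were two-sided edgeR 4.0.16 quasi-likelihood F tests with robust dispersion (limma 3.58.1, R 4.3.3), with Benjamini-Hochberg adjustment at 0.05 over all genes tested. A change "passed", "rose" or "fell" by this threshold. The SE is the absolute log2 change over the square root of the F statistic. Residual degrees of freedom were 3 for depot, 2 for the CD26 gate with depot as a term and 1 for the 4-group fit. The code was tested on simulated data.

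Libraries were grouped by title, and each SAT gate contrast was repeated by library name. Alternatives were DESeq2 1.42.0 and limma-voom, other scalings and filters, leaving out mitochondrial genes or each library, and library number as a block. The 5 genes, the lists and the tests were chosen with earlier results of these data known. The named genes are the 5, the 3 nearest protein-coding genes to each by profile, up to 3 genes of a list in each direction among those passing, and any gene of a list named with its list. In the motif search, overlapping matches were kept. The SAT libraries were compared with no test, with a pseudocount of 1 CPM for the 2-fold count. One item that the naming rule selects is not reported here.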

Additional observations from a re-analysis of the deposited data

Results flagged for a closer look

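When SAT gates were taken from the titles, the gate effect differed between depots for 4 of the 5 genes. The test was edgeR's quasi-likelihood test of the difference itself (SAT minus VAT). By title 1053 of 15920 genes (6.61%) passed it, and by library name 40 (0.251%) did. The log2 difference was 4.85 for Vcam1 (SE 0.83, adjusted p = 0.00169), 5.29 for Sdc1 (SE 0.80, adjusted p = 0.000676), 5.995 for Sparcl1 (SE 0.92, adjusted p = 0.000724) and 4.22 for Ggt5 (SE 0.81, adjusted p = 0.00423). With the SAT gates taken from the library names, the differences were -1.79 (SE 0.76, adjusted p = 0.954) for Vcam1, 0.0083 (SE 0.72, adjusted p = 1.00) for Sdc1, -3.07 (SE 0.83, adjusted p = 0.211) for Sparcl1 and -1.87 (SE 0.76, adjusted p = 0.859) for Ggt5, and none passed with edgeR. Dpp4 was 153-fold higher in SAT library 2, and F3 was 116-fold higher in SAT library 1. Both go with the library names and against the titles. The difference by title thus rests on SAT gates that Dpp4 and F3 go against. The SAT libraries also differ in CD142, whereas both VAT gates are CD142+. Depot and CD142 status therefore cannot be told apart in either difference, and by title the SAT labels come in as well.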

How the results depend on the processing

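Each setting changed 1 choice. Of the counts of the 5 genes that passed, 73 of 82 under an alternative were within 1.5 times the reported count. For the CD26 gate by library name (1 of 5), the count was 3 without a filter, 4 with DESeq2 and 0 with library number as a replicate block, where Sdc1 changed by -2.46 (adjusted p = 0.255). Leaving out 1 library gave 1 to 4, the 4 being without the VAT CD26+CD142+ library. By title (0 of 5), leaving out 1 library gave 0 to 4, with 1 when a SAT library was left out and 4 without the VAT CD26+CD142+ library. For the difference between depots by library name (0 of 5), the count was 1 without a filter and 1 with DESeq2. Without the VAT CD26+CD142+ library, the fits by name and by title are the same SAT contrast with opposite signs. Their spread comes from the VAT CD26-CD142+ pair alone. The cause of these changes in count was not tested. Counts over all genes under these alternatives are not given here, so no share of the table stands beside them.

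Signs that changed belong to values that did not pass, apart from Sdc1 by title without the VAT CD26+CD142+ library. For depot over all gates, the Sdc1 log2 change of 0.072 became -0.032 with limma-voom and -0.62 with the replicate block. Leaving out 1 library moved it between -1.79 (without SAT library 1) and 0.85 (without SAT library 2), Icam1 between -0.99 and 0.42 (the same libraries; 0.21 without VAT CD26-CD142+ library 2) and Vcam1 between -3.20 and 0.12 (the same libraries); Sdc1 was -0.41 without the VAT CD26+CD142+ library. For the CD26 gate by title, leaving out 1 library moved Icam1 between -0.39 and 1.40, Vcam1 between -1.52 and 3.31, Sdc1 between -2.64 and 2.63 (adjusted p = 0.0270; 0.078 without the first VAT CD26-CD142+ library), Sparcl1 between -1.45 and 4.52 and Ggt5 between -1.16 and 3.03. The low ends came without a SAT library, which leaves the gate to VAT, and the high ends without the VAT CD26+CD142+ library, which leaves it to SAT. The Sdc1 difference between depots by library name became -0.037 with upper-quartile scaling and -0.011 with a filter of 5 CPM in 2 libraries.

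In the 4-group fit, leaving out a library of the contrast left no residual degree of freedom or no contrast, and was not run. No label says whether the numbers in the library names mark a shared batch. They were used to pair libraries only in the fits with a replicate block. With DESeq2 size factors, upper-quartile scaling or total counts, levels were 0.913 to 1.08 times those given. The order of libraries changed for Icam1 with upper-quartile scaling and for Vcam1 with total counts. Depth limits the low members little, since the smallest count of the 5 genes was 161 (Sdc1).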
